A study of Mus musculus with 48 samples.

Results

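The circadian clock genes Per1, Cry1, Nr1d1, Ciart and Npas2 were looked up by gene symbol in 4 tables of mouse cerebellum RNA, which together hold 6143 genes. Of these 5 genes, 4 have a row in the comparison of Chd4 conditional knockout (cKO) with wild type (WT) cerebella, and 2 have a row in the comparison of rotarod-trained with resting mice. None has a row in either Sync-TRAP table. The tables are restricted to genes that the authors called at an adjusted p under 0.05, so a gene without a row has no value here.

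Chd4 encodes a chromatin remodeling ATPase that works within the NuRD complex. The messenger RNA came from whole cerebella at postnatal days 27 to 28: 4 Chd4 cKO, 4 WT, 4 from WT mice trained on the rotarod, a turning rod used to train and test motor skill, and 4 from WT mice at rest in the home cage. The Sync-TRAP libraries held ribosome-bound or input RNA at postnatal day 12, 6 days after electroporation, with 3 libraries per group. The sources used here name neither the Cre driver of the cKO, nor the time of day at which tissue was taken, nor the time between training and collection. The labels number the libraries but do not say which came from separate animals, so the p-values measure the spread between these samples, which may be technical.

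The molecular clock is a feedback loop of transcription. CLOCK or its paralog NPAS2 pairs with BMAL1 and binds E-boxes in the genes of its own repressors, among them the PER and CRY proteins and CIART. The nuclear receptor REV-ERB alpha, made from Nr1d1, is another E-box target, and competes with the activating ROR receptors at ROR elements of genes such as Npas2, Cry1 and Nfil3. Per1 is also an immediate early gene, which cAMP signalling through CREB and glucocorticoid hormone can both induce within the hour. Clock genes cycle in the cerebellum as in other brain regions outside the master clock of the suprachiasmatic nucleus.

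The promoters are shown for the 4 genes with a match to any of the motifs marked below. Each line gives the 250 bases before a transcription start in the RefSeq annotation of build GRCm38.p6, read on the strand of the gene. Capitals mark the E-box CACGTG, the E-box variant CACGTT, the letters TGACG at the core of a cAMP response element, and AGGTCA, the core of a ROR element, each on either strand.
Ciart, chr3:95882229-95882478, minus strand: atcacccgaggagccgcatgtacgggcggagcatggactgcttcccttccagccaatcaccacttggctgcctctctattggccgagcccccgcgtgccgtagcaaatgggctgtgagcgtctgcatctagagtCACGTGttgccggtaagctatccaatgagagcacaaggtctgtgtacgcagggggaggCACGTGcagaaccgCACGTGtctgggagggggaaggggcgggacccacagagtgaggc
Nr1d1, chr11:98775378-98775627, minus strand: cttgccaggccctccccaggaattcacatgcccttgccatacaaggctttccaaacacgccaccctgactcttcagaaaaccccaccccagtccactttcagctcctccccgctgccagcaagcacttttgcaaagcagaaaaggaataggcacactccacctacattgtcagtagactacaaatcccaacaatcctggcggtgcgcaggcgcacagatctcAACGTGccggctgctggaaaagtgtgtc
Cry1, chr10:85185055-85185304, minus strand: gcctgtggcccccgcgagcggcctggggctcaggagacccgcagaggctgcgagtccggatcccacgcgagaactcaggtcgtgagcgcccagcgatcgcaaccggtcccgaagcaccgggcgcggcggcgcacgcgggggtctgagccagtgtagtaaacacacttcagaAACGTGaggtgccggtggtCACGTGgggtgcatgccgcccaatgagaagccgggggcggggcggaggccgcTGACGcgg
Per1, upstream start, chr11:69098699-69098948, plus strand: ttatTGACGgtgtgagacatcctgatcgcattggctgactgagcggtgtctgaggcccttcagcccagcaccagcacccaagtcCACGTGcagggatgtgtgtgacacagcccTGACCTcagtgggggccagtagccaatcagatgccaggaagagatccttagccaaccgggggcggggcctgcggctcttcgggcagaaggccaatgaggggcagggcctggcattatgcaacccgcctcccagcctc
Per1, downstream start, chr11:69099902-69100151, plus strand: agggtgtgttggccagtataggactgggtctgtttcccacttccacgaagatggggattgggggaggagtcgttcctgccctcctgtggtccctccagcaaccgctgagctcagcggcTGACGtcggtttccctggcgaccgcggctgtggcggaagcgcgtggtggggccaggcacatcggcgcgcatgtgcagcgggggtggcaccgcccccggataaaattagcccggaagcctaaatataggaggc

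The Ciart promoter held 3 copies of CACGTG, which begin 116, 58 and 44 bases before the start. Among 32851 promoter windows of the same length, 6.02% held at least 1 copy and 20 windows held 3 or more. Cry1 and the upstream start of Per1 held 1 copy each, 60 and 166 bases before the start. The variant CACGTT, found in 3.85% of windows, stood 79 bases before the Cry1 start and 28 bases before the Nr1d1 start, both on the opposite strand. The letters TGACG, found in 17.8% of windows, occurred once in each Per1 window and once in that of Cry1, and AGGTCA, in 14% of windows, once in the upstream Per1 window. The full element TGACGTCA, found in 1.55% of windows, and the D-box letters TTATGTAA or TTACGTAA, found in 0.931%, occurred in no window of the 5 genes. The Npas2 window held none of these letters. TGACG lies within TGACGTCA, and no other searched motif lies within another. A match describes the sequence and is not a bound site.

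The first comparison sets cKO cerebella against WT cerebella and so addresses the effect of losing Chd4. Nr1d1 and Ciart rose and Cry1 and Npas2 fell in cKO, each by 0.38 to 0.50 on the log2 scale, and for each of the 4 genes the cKO and WT libraries did not overlap. Of the 27100 features tested, 20.3% were called in the authors' deposited table, 11.0% as higher and 9.29% as lower, and the groups do not overlap in 78% of its listed genes. Levels are log2 CPM, the count of a gene scaled to library size. The authors' likelihood ratio test gave adjusted p of 5.84e-10 for Nr1d1, 0.000352 for Ciart, 1.59e-08 for Cry1 and 1.24e-05 for Npas2. The limma values given below are larger. Differences are cKO minus WT in log2 CPM ± SE from limma. P-values are adjusted with the Benjamini-Hochberg method over the number of features tested. Features without a row have no p-value here and are ranked behind the listed genes.

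Nr1d1 encodes REV-ERB alpha, a repressor of the clock. The cKO libraries 1 to 4 held 7.57, 7.58, 7.25 and 7.30 log2 CPM of Nr1d1, and the WT libraries 1 to 4 held 7.04, 7.15, 6.91 and 6.97. Every cKO library stood above every WT library. The mean was 7.43 ± 0.18 in cKO and 7.02 ± 0.10 in WT (SD, n = 4 each). Nr1d1 rose 1.33-fold, by 0.41 ± 0.10 (limma adjusted p = 0.0252, 95% interval 0.19 to 0.63, n = 4 per genotype), on 2117 to 2835 reads per cKO library and 1841 to 1977 per WT library. The call was lost with fewer libraries: leaving out WT library 1, 3 or 4, or cKO library 1 or 2, gave differences of 0.42, 0.38, 0.40, 0.36 and 0.36, with adjusted p between 0.0544 and 0.0722. After each library was centred on the median of all listed genes, which lowered every difference by 0.098, Nr1d1 differed by 0.31 (adjusted p = 0.0814). The listed genes were themselves called between the genotypes, so this shift can hold part of the genotype difference.

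Nr1d1 overlaps Thra, the thyroid hormone receptor alpha gene, in the RefSeq annotation. The sources used here do not say whether reads were counted by strand, so reads of the overlap cannot be assigned to either gene with certainty. Thra, named here because of that overlap, was itself higher in cKO, by 0.30 ± 0.07 (limma adjusted p = 0.0249). That call was lost without WT library 2, 3 or 4, or cKO library 1, 2 or 4 (0.25 to 0.31, adjusted p of 0.0553 to 0.0745), and after centring on the median of all listed genes (0.20, adjusted p = 0.115). The cKO libraries 1 to 4 held 8.67, 8.77, 8.51 and 8.60 log2 CPM of Thra, and the WT libraries 8.43, 8.36, 8.28 and 8.28. The part of this overlap in the Nr1d1 value was not tested.

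Ciart, also known as Chrono, encodes a repressor that acts on the CLOCK and BMAL1 complex. Its level was 3.85, 3.65, 3.90 and 3.92 log2 CPM in cKO libraries 1 to 4, and 3.52, 3.32, 3.53 and 3.43 in WT libraries 1 to 4. The lowest cKO library, number 2, still stood above the highest WT library, number 3. The mean was 3.83 ± 0.12 in cKO and 3.45 ± 0.10 in WT (SD, n = 4 each). Ciart rose 1.30-fold, by 0.38 ± 0.08 (limma adjusted p = 0.0146, 95% interval 0.20 to 0.56, n = 4 per genotype). The counts behind it are small, 184 to 232 reads per cKO library and 137 to 178 per WT library, which leaves a counting error of 6.57 to 8.54% in each value. With any 1 of the 8 libraries left out, the adjusted p stayed between 0.0073 and 0.0463.

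Cry1 encodes a cryptochrome, the partner of PER in the repressor complex. The cKO libraries 1 to 4 held 5.49, 5.62, 5.28 and 5.34 log2 CPM of Cry1, and the WT libraries 1 to 4 held 5.86, 5.94, 5.76 and 5.72. The lowest WT library lay above the highest cKO library. The mean was 5.43 ± 0.15 in cKO and 5.82 ± 0.10 in WT (SD, n = 4 each). Cry1 fell by 0.39 ± 0.09 (limma adjusted p = 0.0233, 95% interval -0.59 to -0.18, n = 4 per genotype), with 540 to 727 reads per cKO library and 774 to 870 per WT library. Without WT library 1 or 2, or cKO library 3 or 4, the difference was -0.37, -0.34, -0.34 and -0.35, with adjusted p between 0.0599 and 0.0683.

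Npas2 encodes the paralog of CLOCK that serves as an activator in the forebrain and other tissues. It stood at 2.71, 2.77, 2.94 and 3.11 log2 CPM in cKO libraries 1 to 4, and at 3.14, 3.26, 3.47 and 3.67 in WT libraries 1 to 4. The groups came close without overlapping: cKO library 4 lay just below WT library 1. The mean was 2.88 ± 0.18 in cKO and 3.39 ± 0.23 in WT (SD, n = 4 each). Npas2 fell by 0.50 ± 0.13 (limma adjusted p = 0.0424, 95% interval -0.81 to -0.20, n = 4 per genotype). It rests on 88 to 132 reads per cKO library and 131 to 186 per WT library, a counting error of 7.33 to 10.7% in each value. The call was lost without WT library 2, 3 or 4, or cKO library 1, 2 or 3, where the difference was -0.54, -0.48, -0.41, -0.44, -0.46 and -0.52 and the adjusted p lay between 0.0642 and 0.114. For each of the 4 genes, the exact permutation test over libraries gave a two-sided p of 0.0286, the smallest that 4 against 4 libraries allow. Any gene whose groups do not overlap reaches this value, as 78% of the listed genes do. The test therefore adds nothing to the lack of overlap.

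**Figure D1:**
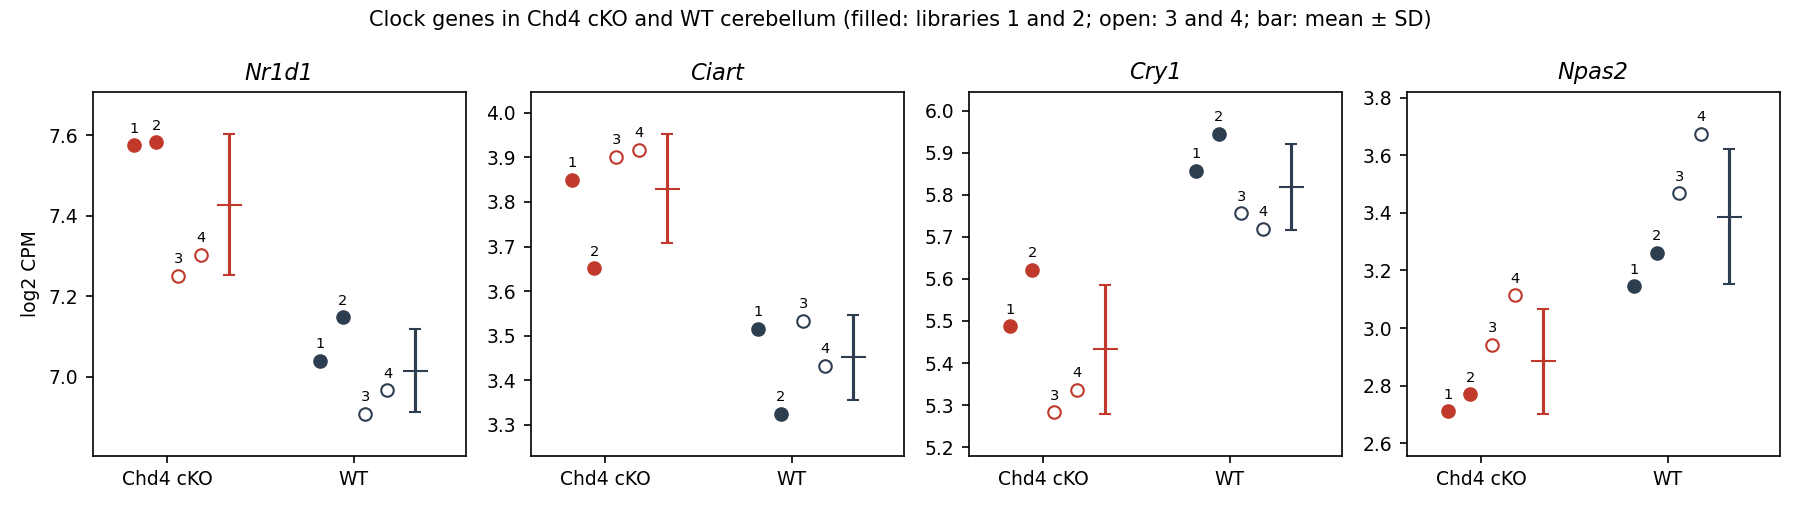
Level of Nr1d1, Ciart, Cry1 and Npas2 in log2 CPM (vertical axes, scaled per gene) in the 4 Chd4 cKO and 4 WT libraries; each point is a library with its number, filled for libraries 1 and 2 and open for 3 and 4, and the bar is the mean ± SD. The cKO libraries lie above the WT libraries for Nr1d1 and Ciart and below them for Cry1 and Npas2, with no overlap.

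For 3 of the 4 genes the libraries split by their number within each genotype. The cKO and WT libraries numbered 1 and 2 both held more Nr1d1 and more Cry1, and less Npas2, than those numbered 3 and 4. For Nr1d1, libraries 1 and 2 exceeded libraries 3 and 4 by 0.30 in cKO and by 0.16 in WT, and for Cry1 by 0.24 in cKO and by 0.16 in WT. Npas2 was lower in libraries 1 and 2, with a difference of -0.29 in cKO and -0.37 in WT. Dbp, a clock output gene, behaved like Nr1d1 (0.35 in cKO and 0.27 in WT), and so did Fos, a gene that neuronal firing induces (0.66 in cKO and 1.23 in WT). Ciart was lower in libraries 1 and 2 than in 3 and 4 in cKO, and its WT libraries showed no such split. Between genotypes Fos differed by 1.11 ± 0.36 (limma adjusted p = 0.0875), with no overlap of the groups. Fos passed limma with the library number as a block (adjusted p = 0.0136) and within libraries 3 and 4 alone (1.39, adjusted p = 0.0276). It did not pass within libraries 1 and 2 alone (0.83, adjusted p = 0.0802) or after centring on the median of all listed genes (1.01, adjusted p = 0.13). Nor did it pass with any 1 of the 8 libraries left out (adjusted p of 0.0574 to 0.227).

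Nr1d1 and Cry1 thus shared the direction of this split, while cKO minus WT was positive for Nr1d1 and negative for Cry1. Among all 5508 listed genes, 471 had libraries 1 and 2 above 3 and 4 in both genotypes and 588 had them below, 19.2% in all, so the split was common in this table. The cKO and WT libraries of Nr1d1, Ciart, Cry1 and Npas2 do not overlap. The genotype difference therefore could not change direction within a part of the libraries, and only its size could vary. For Nr1d1 it was 0.48 within libraries 1 and 2 and 0.34 within 3 and 4, for Ciart 0.33 and 0.43, for Cry1 -0.35 and -0.43, and for Npas2 -0.46 and -0.54. With 2 libraries a genotype none of these 8 values passed limma (adjusted p of 0.0649 to 0.384). The labels do not say what the numbers stand for.

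**Figure D2:**
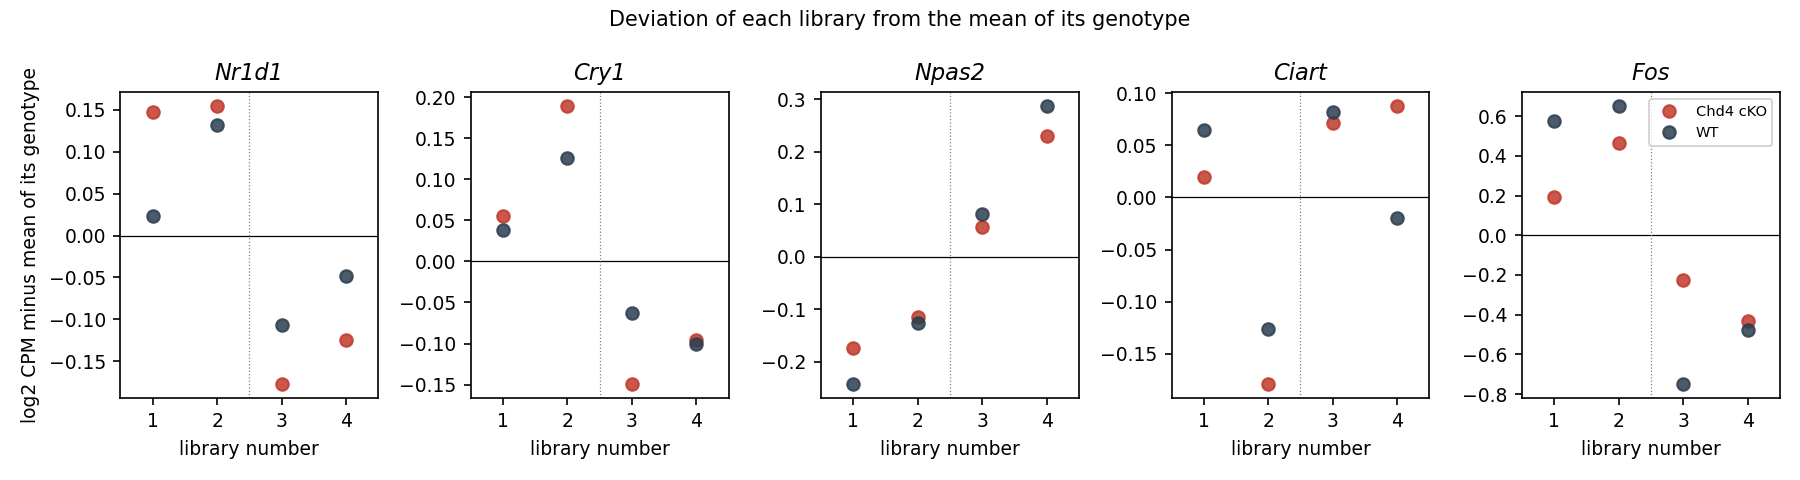
Log2 CPM of each library minus the mean of its genotype (vertical axes, scaled per gene) against library number, for Nr1d1, Cry1, Npas2, Ciart and Fos; red points are Chd4 cKO and dark points WT libraries. In both genotypes libraries 1 and 2 lie above libraries 3 and 4 for Nr1d1, Cry1 and Fos and below them for Npas2.

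Per1 has no row in the cKO table. A list of 25 clock genes, which includes the 5, was then read from the same table by role. The authors called 12 of the 25, 8 as higher and 4 as lower in cKO, or 48.0% against 20.3% of all features. The 25 include the 5 genes looked up at the outset, and of the other 20 the authors called 8, or 40.0%. The whole list was chosen with earlier results of these data known, so neither share is an independent test. The table holds no genes that were not called, so these shares were not matched on abundance. The listed clock genes had a median log2 fold change of 0.24 in the authors' deposited table, and all listed genes one of 0.20. Limma passed 8 of the 12, 4 higher and 4 lower, and 65% of all listed genes, so the share of clock genes that passed was near that of the table.

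Among the activators, Npas2 alone of 4 has a row, and Clock, Arntl, which encodes BMAL1, and Arntl2 have none. Among the 6 PER, CRY and CIART repressor genes, Cry2 rose by 0.34 ± 0.05 (limma adjusted p = 0.00465) where its paralog Cry1 fell. Cry2 held 7.13 to 7.20 log2 CPM over the cKO libraries and 6.74 to 6.93 over the WT libraries, without overlap. Per1, Per2 and Per3 have no row.

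Among the nuclear receptors, Nr1d2, the gene of REV-ERB beta, rose like its paralog Nr1d1, by 0.29 ± 0.06 (limma adjusted p = 0.0181). That call was lost without WT library 2 or 4 (adjusted p = 0.0518 and 0.0579) and after centring on the median of all listed genes (0.19, adjusted p = 0.0821). Rora and Rorb have no row.

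Nfil3 encodes a repressor that competes with DBP, TEF and HLF at D-boxes, and fell by 0.25 ± 0.06 (limma adjusted p = 0.0282). Without WT library 2, 3 or 4, or cKO library 1 or 2, it differed by -0.23, -0.25, -0.25, -0.23 and -0.22, with adjusted p between 0.0653 and 0.0813. The output activators Dbp and Tef differed by 0.25 ± 0.13 and 0.21 ± 0.07, and the DEC repressor genes Bhlhe40 and Bhlhe41 by 0.23 ± 0.08 and 0.29 ± 0.08. None of these 4 passed limma (adjusted p = 0.446, 0.118, 0.114 and 0.0534), and the cKO and WT libraries of Dbp overlapped. These calls hang on the setting: with a trend in the variance Bhlhe40, Bhlhe41 and Tef passed limma (adjusted p = 0.0329, 0.011 and 0.031), and Bhlhe40 also passed without cKO library 3 (0.30, adjusted p = 0.039). Of 5 genes for the kinases and ubiquitin ligases that set the life of PER and CRY proteins, Fbxw11, which encodes a beta-TrCP ligase, was the only one listed, and it fell by 0.48 ± 0.06 (limma adjusted p = 0.00103). Hlf, Csnk1d, Csnk1e, Fbxl21 and Btrc have no row.

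**Figure D3:**
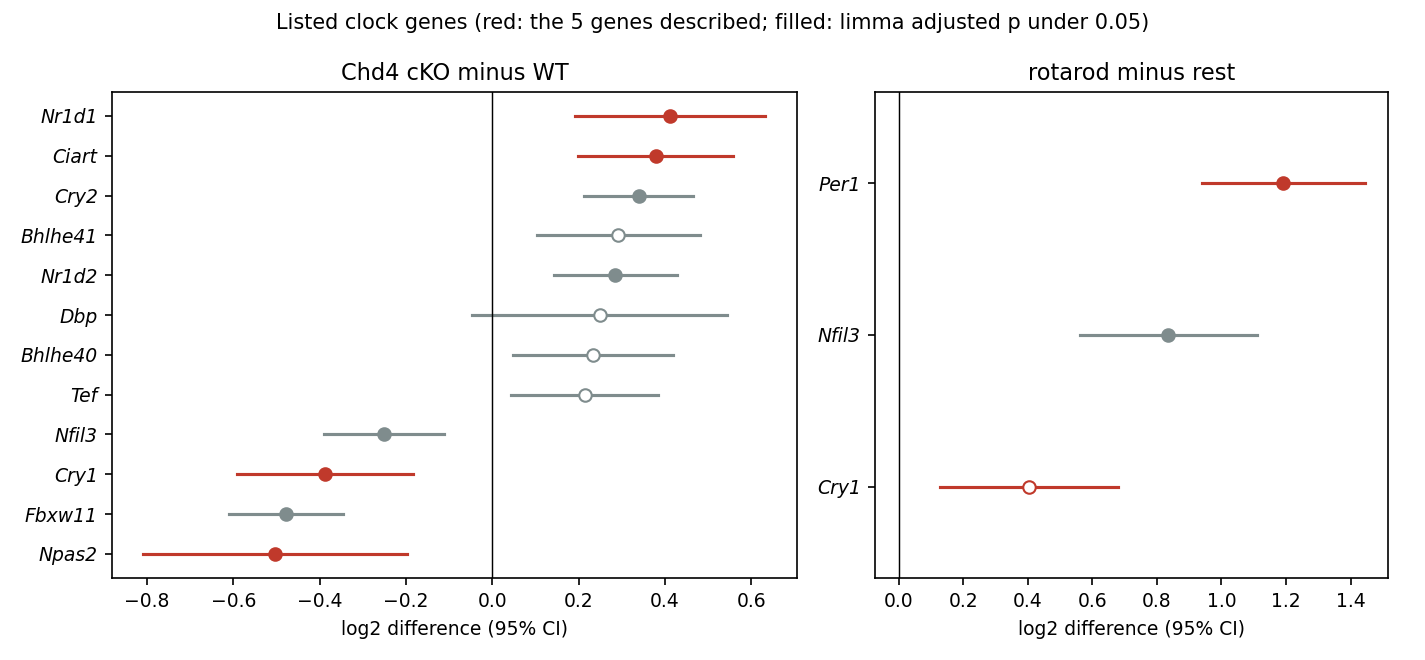
Log2 difference with its 95% interval from limma for each listed clock gene, Chd4 cKO minus WT on the left and rotarod minus rest on the right (n = 4 libraries per group); red marks Per1, Cry1, Nr1d1, Ciart and Npas2, and filled points have a limma adjusted p under 0.05. In cKO the 12 genes stand between -0.50 and 0.41, while all 3 genes listed for training are higher.

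Chd4 itself fell by 0.44 ± 0.06 (limma adjusted p = 0.00199), 1.35-fold over the whole cerebellum. In bulk tissue, fewer cells of a type and less RNA per cell cannot be told apart, and markers of other cell types moved with the genotype. Leaving granule neurons aside, 46 of 87 cell type markers are listed (52.9%), 43 lower and 3 higher in cKO, with a median log2 difference of -0.32. Of all features, 20.3% were called, 11.0% as higher and 9.29% as lower, and these shares were not matched on abundance. Lower were 8 of 10 Purkinje cell, 6 of 10 inhibitory interneuron, 5 of 10 astrocyte and Bergmann glia, 7 of 10 oligodendrocyte, 7 of 10 vascular, 6 of 10 meningeal and fibroblast, 3 of 10 choroid plexus and 1 of 7 red blood cell markers, while 1 interneuron, 1 of 10 microglia and 1 red blood cell marker were higher. The summed level of the 46 listed markers was 16435 to 17002 CPM in the cKO libraries and 18500 to 20338 CPM in the WT libraries. Only markers called on these libraries enter this sum, so its separation follows from that selection. Of 10 granule neuron markers 3 were higher and 3 lower, summing to 3511 to 3644 CPM in cKO and 3570 to 3847 CPM in WT, and markers without a row have no value here. The part of cell composition in the clock gene differences was not tested.

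The next comparison sets rotarod-trained mice against resting mice and so addresses the response of the cerebellum to motor training. Per1 rose 2.29-fold with training, while Cry1 was higher by a smaller amount that did not pass limma. Per1 and Cry1 are 2 of the 5 clock genes, both in the higher direction. The authors called 3.38% of 26900 features in this comparison, 2.06% as higher and 1.31% as lower, and the groups do not overlap in 84.9% of the listed genes. The libraries carry column numbers that match no sample title, so they are named by these numbers, 3, 4, 7 and 8 for rotarod and 1, 2, 5 and 6 for rest. Differences are rotarod minus rest in log2 CPM ± SE from limma.

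Per1 encodes the PERIOD repressor that acute signals induce. Its level was 8.08, 8.24, 8.05 and 8.24 log2 CPM in rotarod libraries 3, 4, 7 and 8, and 6.79, 6.90, 7.26 and 6.88 in rest libraries 1, 2, 5 and 6. The rotarod libraries lay close together and far above every rest library, among which library 5 was highest. The mean was 8.15 ± 0.10 with rotarod and 6.96 ± 0.21 at rest (SD, n = 4 each). Per1 rose by 1.19 ± 0.11 (limma adjusted p = 0.00432, 95% interval 0.94 to 1.45, n = 4 per group), with 4106 to 4978 reads per rotarod library and 1650 to 2111 per rest library. It held rank 12 by p-value and rank 114 by size of the log2 fold change among the 908 genes of the authors' deposited table. With any 1 of the 8 libraries left out, the difference stayed between 1.14 and 1.29 and the adjusted p between 0.00255 and 0.0227. The exact permutation test over libraries gave a two-sided p of 0.0286, the smallest possible. Every gene whose groups do not overlap reaches it, 84.9% of the listed genes.

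Fos, the immediate early gene, moved in the same libraries: it held 6.31, 6.55, 6.76 and 6.98 log2 CPM in rotarod libraries 3, 4, 7 and 8, and 2.45, 2.47, 3.23 and 2.32 in rest libraries 1, 2, 5 and 6. Rest library 5 was the highest rest library for both Fos and Per1. Without it, Per1 differed by 1.29 (limma adjusted p = 0.00255).

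Cry1 was at 5.82, 5.73, 5.61 and 5.44 log2 CPM in rotarod libraries 3, 4, 7 and 8, and at 5.49, 5.27, 5.01 and 5.20 in rest libraries 1, 2, 5 and 6. The groups overlapped, as rotarod library 8 fell below rest library 1. The authors' deposited table calls Cry1 higher, with an adjusted p of 0.00484. In limma it differed by 0.41 ± 0.12 (adjusted p = 0.329, 95% interval 0.13 to 0.68, n = 4 per group), and the exact permutation test gave p = 0.0571. Within columns 1 to 4 the difference was 0.39, and within columns 5 to 8 it was 0.42. Both groups were higher in columns 1 to 4, by 0.25 for rotarod and by 0.27 for rest. With this split of the columns as a term in the fit, the adjusted p of Cry1 was 0.114.

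Of the 25 clock genes, 3 are listed for training, all higher, or 12.0% against 3.38% of all features. The list was chosen with earlier results of these data known. Per1 and Cry1 are among the 5 genes looked up at the outset, and of the other 20 clock genes 1 is listed, or 5.0%, near the share of all features. That gene is Nfil3, at 4.30, 4.25, 4.52 and 4.63 log2 CPM in rotarod libraries 3, 4, 7 and 8, and 3.77, 3.72, 3.39 and 3.48 in rest libraries 1, 2, 5 and 6. It rose 1.79-fold, by 0.84 ± 0.12 (limma adjusted p = 0.0286), without overlap of the groups. Leaving out any of the 8 libraries raised its adjusted p to between 0.0526 and 0.0901, with differences of 0.77 to 0.90. Within columns 1 to 4 the difference was 0.53 and within columns 5 to 8 it was 1.14. Nr1d1, Ciart and Npas2 have no row in this table.

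**Figure D4:**
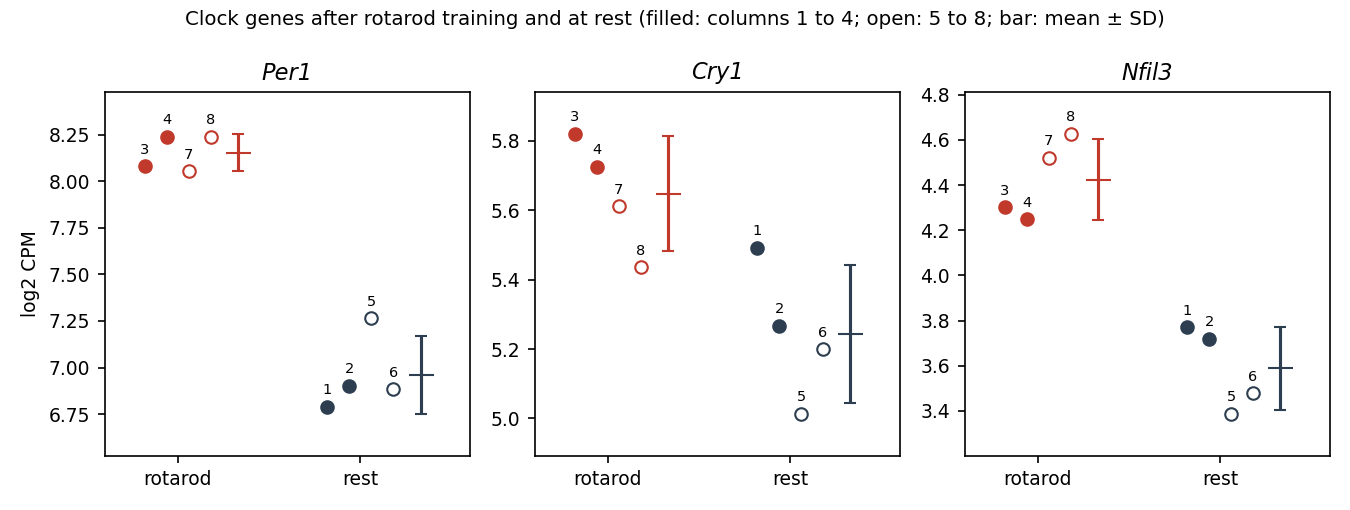
Level of Per1, Cry1 and Nfil3 in log2 CPM (vertical axes, scaled per gene) in the 4 rotarod and 4 rest libraries; each point is a library with its column number, filled for columns 1 to 4 and open for 5 to 8, and the bar is the mean ± SD. Rotarod and rest libraries are apart for Per1 and Nfil3 and overlap for Cry1.

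Cry1 and Nfil3 are the clock genes with a row in both comparisons, which use separate libraries. Cry1 differed by 0.41 with training and fell by 0.39 in cKO, and Nfil3 rose by 0.84 with training and fell by 0.25 in cKO. Of 87 cell type markers outside granule neurons, 7 are listed for training, 2 higher and 5 lower, or 8.05% against 3.38% of all features. Of the 10 meningeal and fibroblast markers 4 were lower, with a median log2 difference of -0.49. These 4 summed to 77.8 to 100.2 CPM in rotarod libraries and 109.9 to 140.8 CPM in rest libraries. Only markers called on these libraries enter the sums, so their separation follows from that selection, and markers without a row have no value. The astrocyte marker Sox9 was lower too, and the vascular marker Flt1 and the red blood cell marker Hba-a1 were higher. The 7 together summed to 273 to 369 CPM in rotarod libraries and 269 to 397 CPM in rest libraries, and none of 10 granule neuron markers is listed. The part of cell composition in the values of Per1, Cry1 and Nfil3 was not tested. At day 12 none of the 25 clock genes has a row in the comparison of cKO with WT pull-downs, where 0.148% of features were called (0.117% higher, 0.0312% lower), nor in that of WT pull-downs with their input, where 0.195% were (0.115% higher, 0.0802% lower).

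Genes whose levels varied most like each clock gene within the groups were found by correlating log2 CPM, centred on the group means, over the 8 libraries of a table. The values share libraries and depth, and are given as a description. The genes named had the highest r among 5507 genes compared in the cKO table or 907 in the rotarod table. Such a search favours a high r, and no r was tested against chance. In the cKO table the split by library number, seen in 19.2% of all listed genes, was not removed. The part of that split in these values was not tested. In the cKO table Nr1d1 was closest to the heparan sulfate enzyme gene Ndst1 (r = 0.99), the G protein gene Gnao1 (0.98) and Zfp385a (0.98). Cry1 was closest to Tmem28 (0.97), Hey1, a Notch effector gene (0.97), and again Ndst1 (0.97). Ciart was closest to the adaptor gene Ap1m1 (0.98), Wdr76 (0.97) and Dus2 (0.95), and Npas2 to Tshb (0.98), Gm28043 (0.98) and the splicing kinase gene Clk2 (0.97). In the rotarod table Per1 was closest to Gm15949 (0.96), A830010M20Rik (0.91) and Msrb1 (0.90), and Cry1 to Abcc8 (0.95), Sox18 (0.95) and Prkx (0.93).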

How the data were processed

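The members and lists were chosen with earlier results of these data known. Per the file headers, the authors deposited for each gene a log2 fold change, a likelihood ratio score, its p-value with the false discovery rate, and a value per library, which the numbers show to be log2 CPM with a small prior count. The submitters' processing notes name Bowtie, SICER, bedtools, edgeR and build mm9, without their roles or versions. How reads were counted, and whether by strand, is not stated. Repeated lines, 49 in the cKO and 5 in the rotarod table, were removed. The number of features tested was estimated from adjusted p times rank over p.

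Removing the prior of the deposited log2 values gave whole reads (100% within 0.1 read), at effective library sizes of 13.7 to 15.6 M (cKO, WT) and 13.7 to 16.7 M (rotarod, rest). Counting errors cover counting alone. The listed genes were fitted with limma 3.58.1 (R 4.3.3), with no pseudocount, and its variance prior comes from called genes alone. Exact permutation tests used scipy 1.17.1. The fit was tested on simulated data. Named genes are the 5 genes, listed members of a 25-gene clock list (some genes of the pathway are not reported here), Chd4, Fos, Thra (added after its values were seen) and the 3 most correlated genes per table. Same-numbered cKO and WT libraries correlated at 0.0983, 0.16, 0.131 and 0.0846 in their deviations. Differently numbered ones correlated at 0.0305 to 0.184 within libraries 1 and 2 or within 3 and 4. Across these parts they correlated at -0.163 to 0.0312. The main fit did not take the numbers as pairs, and a fit with the number as a block is given below. Chromatin samples, region lists and input cKO libraries were not analysed here.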

Additional observations from a re-analysis of the deposited data

Results flagged for a closer look

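In a screen of 38 groups of 4 libraries, over the named genes, 2 libraries stood apart from the other 3 of their group by Dixon's test at the 95% level, where chance gives about 1 in 20 groups. Chd4 stood at 8.06 log2 CPM in cKO library 1, against 7.90 in each of the other cKO libraries. Fos stood at 3.23 log2 CPM in rest library 5, against 2.32 to 2.47 in the other rest libraries. No library of Per1, Cry1, Nr1d1, Ciart or Npas2 was flagged.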

How the results depend on the processing

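No difference of the 5 clock genes changed direction under any alternative, but for many alternatives a reversal was not possible. A trend, a block or another adjustment leaves the difference itself unchanged. Leaving out or splitting libraries cannot reverse a gene whose groups do not overlap. Pseudocounts of 1 and 5 CPM, a trend in the variance and a filter at the median abundance, where a gene passed it, kept every call of Nr1d1, Ciart, Cry1, Npas2 and Per1. Among other genes named for cKO, pseudocounts of 1 and 5 CPM and a trend let Fos (adjusted p = 0.0418, 0.0404 and 0.0123) and Bhlhe41 (0.0337, 0.0242 and 0.011) pass limma, and the abundance filter Bhlhe41 (0.0261). Adjusted over the listed genes alone, Bhlhe40, Bhlhe41, Tef and Fos passed (0.0231, 0.0108, 0.024 and 0.0178). The listed genes are those the authors called on the same libraries, so this adjustment favours a pass and lends no support. Bonferroni adjustment over the features tested ended the calls of Nr1d1 (0.41), Ciart (0.38), Cry1 (-0.39) and Npas2 (-0.50) in cKO and of Per1 (1.19) with training. Centring on the median of all listed genes, a set called on the same difference, lowered every cKO difference and ended the call of Nr1d1 (0.31). It kept those of Ciart (0.28, limma adjusted p = 0.0461), Cry1 (-0.48, 0.00768) and Npas2 (-0.60, 0.0177). Libraries 1 and 2 alone gave 0.48, 0.33, -0.35 and -0.46 for Nr1d1, Ciart, Cry1 and Npas2, and libraries 3 and 4 alone 0.34, 0.43, -0.43 and -0.54, none past limma with fewer samples. Columns 1 to 4 and 5 to 8 alone gave 1.31 and 1.07 for Per1, not past limma with fewer samples; these column splits were chosen after seeing the data. Adjusted over the listed genes alone, Cry1 with training (0.41) passed limma, but this adjustment favours a pass for the same reason as in cKO.

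With any 1 library left out, Nr1d1 ranged from 0.36 to 0.47, Ciart from 0.34 to 0.44, Cry1 from -0.45 to -0.34 and Npas2 from -0.58 to -0.41 in cKO, and Per1 from 1.14 to 1.29 and Cry1 from 0.33 to 0.49 with training. Limma then passed 4, 5, 6 or 7 clock genes in cKO, against 12 called by the authors and 8 by limma on all libraries, and 1 with training, against 3 and 2. In cKO, limma on all libraries passed 4 higher genes where the authors called 8. With the library number as a replicate block, limma passed 6 clock genes in cKO, without Nr1d2 and Nfil3. The 4 members kept their calls under the block (adjusted p = 0.0154 for Nr1d1, 0.016 for Ciart, 0.0135 for Cry1 and 0.00594 for Npas2), although the numbers share no stated meaning. Over all genes the block passed 1811 higher and 1037 lower, against 2214 and 1365 without it. Ciart and Npas2 rest on the fewest reads of the 5 genes, and a gene the tables do not list cannot be placed at any depth.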
